A study of Mus musculus with 15 samples.

Results

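The genes described here encode the amyloid precursor protein family (App, Aplp1 and Aplp2), enzymes and enzyme subunits that cut its members (Bace1, Adam10, Psen2 and Ncstn), and the microtubule-associated protein tau (Mapt). These 8 genes were taken by name, with earlier results of these data known, from the 43629 genes listed in the deposited counts, and all 8 were among the 15864 genes with enough counts to be tested. Whole-brain RNA had been sequenced from 15 male C57BL/6J wildtype mice, 1 library per mouse. One arm ate ad libitum (AL), with food at all times, and the other had every-other-day feeding (EOD, called IF in the sample labels), begun at the age of 2 months. Young mice were 3 months old, and old mice were 24 months old by the labels (21 months is the age at which the study began to analyse them). In the study's design, young mice had EOD for 1 month before analyses began, and old mice for almost all of their life. Age in EOD mice thus also differs in time on EOD, and diet values averaged over ages mix short and near-lifelong EOD. AL mice numbered 4 young and 4 old, and EOD mice numbered 3 young and 4 old. No mouse carried a transgene or a disease allele, and no group models Alzheimer's disease.

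The amyloid precursor protein is a membrane protein of neurons and many other cells. When the alpha-secretase ADAM10 makes the first cut, a soluble ectodomain is shed and no amyloid-beta is formed. When the beta-secretase BACE1 cuts first, the remaining stub is cut within the membrane by gamma-secretase, a complex with a presenilin (such as presenilin 2, from Psen2) as its catalytic subunit and nicastrin (from Ncstn) as a structural subunit, and amyloid-beta is released. Tau binds microtubules in axons. Aggregates of amyloid-beta and of tau define the pathology of Alzheimer's disease, in which age is the leading risk factor. Wildtype mice do not normally form plaques. The counts measure RNA only and say nothing of protein, cleavage or phosphorylation.

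All members are single genes of the GRCm38 build with the coordinates of the counting annotation. App (ENSMUSG00000022892) spans chr16:84954440-85173707 on the minus strand, Aplp1 (ENSMUSG00000006651) chr7:30434981-30445582 on the minus strand and Aplp2 (ENSMUSG00000031996) chr9:31149557-31211815 on the minus strand. Bace1 spans chr9:45838580-45864399 on the plus strand, Adam10 chr9:70678997-70780229 on the plus strand, Psen2 chr1:180227004-180263438 on the minus strand, Ncstn chr1:172066013-172082795 on the minus strand and Mapt chr11:104231390-104332090 on the plus strand. Counts are over all exons of a gene, so that splice forms of App or Mapt were not separated.

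RefSeq promoter windows of GRCm38.p6, here the 250 bases before an annotated start, matched 6 of the 8 genes in 7 windows (Psen2 has 2). The windows of the App paralogs Aplp1 and Aplp2 are shown because these genes stand next to each other in the order of levels below. They are written 5′ to 3′ on the strand of the gene, with each GGGCGG or its reverse complement CCGCCC in capitals. The Aplp1 window is chr7:30445583-30445832 and the Aplp2 window is chr9:31211849-31212098, both on the minus strand. The end of the RefSeq sequence after the start was found in 0 GENCODE transcripts for Aplp1 and for Aplp2. For the other windows it was found in 1 to 7 transcripts.

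Aplp1: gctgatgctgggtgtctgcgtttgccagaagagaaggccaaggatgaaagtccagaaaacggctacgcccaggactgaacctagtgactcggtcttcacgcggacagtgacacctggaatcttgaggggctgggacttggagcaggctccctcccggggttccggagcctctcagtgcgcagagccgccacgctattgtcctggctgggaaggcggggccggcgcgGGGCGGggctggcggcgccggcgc

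Aplp2: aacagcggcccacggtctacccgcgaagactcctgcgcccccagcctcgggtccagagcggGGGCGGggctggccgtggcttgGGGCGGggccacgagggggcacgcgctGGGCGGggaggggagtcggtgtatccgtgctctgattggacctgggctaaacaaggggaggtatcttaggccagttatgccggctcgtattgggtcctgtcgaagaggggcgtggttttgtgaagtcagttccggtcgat

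The Aplp1 window holds 1 such box and the Aplp2 window 3, and their GC contents were 66.0% and 66.4%, against a median of 52.4% over all 32841 windows. Of the 7 windows of these genes, 5 held at least 1 box on either strand, against 32.7% of all windows. TATAAA or its reverse complement TTTATA was in 0 of the 7, against 12.4% of all windows. These matches describe the letters of the windows and nothing was measured at them.

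Total counts on genes ranged from 5198748 to 13610729 per mouse. The third young AL mouse stood apart, with 17280 genes detected against 19054 to 20880 in the other 14 and a median correlation with the other mice of 0.975 against 0.986 to 0.991 (log2 scale, across genes). Results that rest on it are given with and without it. Markers of neurons, astrocytes, oligodendrocytes and microglia were present in every mouse, as the tissue label implies, and liver markers summed to at most 1.39 CPM. Pituitary markers reached a sum of 1009 CPM in 1 old AL mouse, against a median of 0.509 CPM over all mice. CPM is the unit used here for a count scaled to the size of its library by the TMM method. Summed markers are the exception and were scaled by library totals alone. In bulk tissue, fewer cells of a type and less RNA per cell cannot be told apart.

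App, the most abundant of the 8 genes, Aplp1 and Aplp2 were among the most highly expressed genes of the brain. Per kilobase of exon, the mean over the 15 mice was 650.1 CPM for App, 366 for Aplp1, 208 for Aplp2, 72.1 for Mapt, 28.5 for Adam10, 25.9 for Bace1, 15.5 for Ncstn and 3.08 for Psen2. Among the 15864 tested genes, App ranked 21st by this level, Aplp1 50th, Aplp2 115th, Mapt 602nd, Adam10 1963rd, Bace1 2178th, Ncstn 3748th and Psen2 10225th. This order was the same in 15 of 15 mice, young and old, AL and EOD. Adam10 and Bace1 were the neighbours whose ranges over mice overlapped, with Adam10 at 1.002 to 1.25 times the level of Bace1 within a mouse. The levels of the other neighbours did not overlap.

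**Figure D1:**
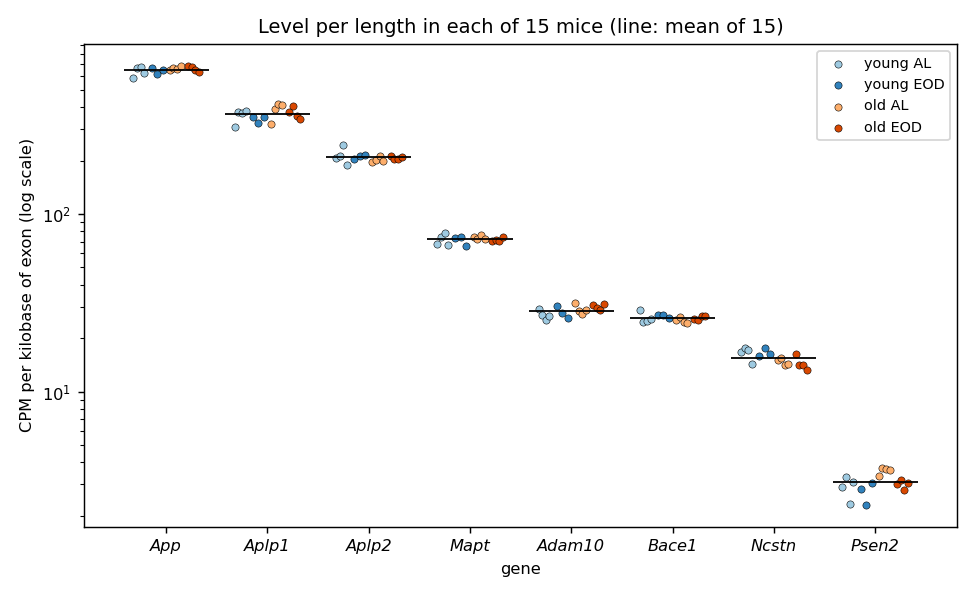
Level of each gene in CPM per kilobase of exon (log axis), with 1 point per mouse, coloured by group, and a line at the mean of 15 mice. The genes run from 650.1 (App) to 3.08 (Psen2), and the points of Adam10 and Bace1 alone share a range with a neighbour.

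The spread over all 15 mice was small for most of the genes. The coefficient of variation was 4.23% for App, 4.65% for Bace1, 4.66% for Mapt, 6.07% for Aplp2, 6.54% for Adam10, 8.97% for Aplp1, 9.31% for Ncstn and 13.9% for Psen2. The highest mouse had 1.16 times the App level of the lowest mouse, and 1.62 times its Psen2 level. Psen2 was also counted least, with 58 to 186 reads per mouse, for which counting error alone gives a coefficient of variation of 7.33% to 13.1%. App was counted 10837 to 27922 times per mouse, where counting error is at most 0.961%. Between replicate mice, the biological coefficient of variation estimated by edgeR was 0.0652 for App and 0.107 for Psen2, against a median of 0.123 over all tested genes.

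Age and diet were compared in 1 edgeR quasi-likelihood fit of the 4 groups, and p-values were adjusted by Benjamini-Hochberg across the 15864 tested genes (FDR, called under 0.1). Of the 8 genes, 0 were called in each of 7 comparisons. With age, 1.09% of all tested genes were called in AL mice, 0.29% in EOD mice and 2.3% when the 2 diets were averaged. With diet, 0% were called in young mice, 0% in old mice and 0% when the ages were averaged, and 0% for the interaction of age and diet. At an unadjusted p under 0.05, the members numbered 1 (Psen2) for age in AL mice, 1 (Ncstn) for age in EOD mice and 2 (both) for age averaged over diets, and 0 in the diet comparisons and the interaction. Without the third young AL mouse, Psen2 was no longer among them for age, while it was for diet in old mice (unadjusted p = 0.0321, edgeR FDR = 0.995) and for diet averaged over ages (unadjusted p = 0.0207, edgeR FDR = 0.79), and Ncstn stayed for age in EOD mice and averaged. All genes at that level made up 9.52%, 5.74% and 11.7% in the 3 age comparisons, and 4.14% (young mice), 2.58% (old mice) and 4.51% (averaged) for diet and 2.28% for the interaction. DESeq2 and limma voom called 0 of the 8 as well. The comparisons share mice, so that these counts are not independent.

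The ranges of 2 groups did not overlap for 1 of the 8 genes (Psen2, higher in old) with age in AL mice, where 4.56% of all tested genes did not overlap. They overlapped for all 8 genes with age in EOD mice (9.04% of all genes did not overlap) and with diet in young mice (4.45%). In old mice 1 gene (Psen2, lower in EOD) did not overlap between diets, against 2.59% of all genes. Between all old and all young mice, 0 of the 8 were separated, against 0.901% of all genes.

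**Figure D2:**
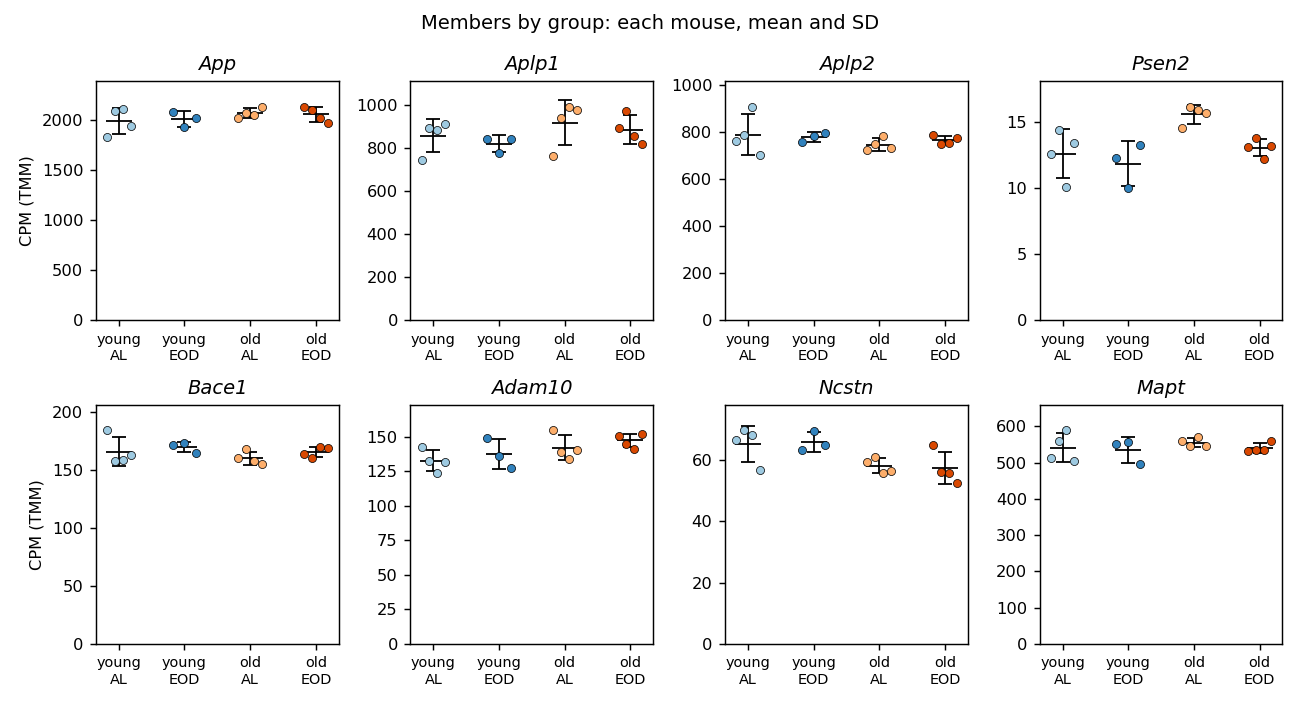
Level of each gene in TMM-scaled CPM (linear axes from 0) in young AL (n = 4), young EOD (n = 3), old AL (n = 4) and old EOD (n = 4) mice, with 1 point per mouse and a bar with whiskers for the mean and SD of the group. Group means of App lie between 1993 and 2067 CPM, and the old AL mice stand above the other old mice for Psen2 alone.

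App itself, the precursor of amyloid-beta, was level across groups. In young AL mice it measured 1835, 2091, 2109 and 1937 CPM, in young EOD mice 2083, 1926 and 2019 CPM, in old AL mice 2017, 2067, 2050 and 2135 CPM and in old EOD mice 2133, 2106, 2026 and 1966 CPM. The groups overlapped throughout. Averaged over diets, the log2 fold change of App with age was 0.043 (95% confidence interval -0.046 to 0.13; edgeR FDR = 0.75), so that differences beyond 1.10-fold lay outside the interval. With EOD, averaged over ages, it was 0.0026 (-0.086 to 0.092; FDR = 0.998), within 1.07-fold in either direction. Without the third young AL mouse the age value was 0.063 (within 1.11-fold) and the diet value 0.017 (within 1.08-fold).

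Aplp1 encodes a paralog of App found mostly in neurons. It measured 743, 892, 884 and 913 CPM in young AL mice and 842, 776 and 844 CPM in young EOD mice. Old AL mice had 765, 939, 993 and 979 CPM and old EOD mice 892, 975, 856 and 818 CPM. Within each of the 2 AL groups, 1 mouse (743 and 765 CPM) was low, and young and old overlapped. With age averaged over diets its log2 fold change was 0.10 (-0.023 to 0.23; edgeR FDR = 0.54) and that with EOD averaged over ages was -0.059 (-0.19 to 0.068; FDR = 0.98).

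Aplp2, the third member of the family and widely expressed, measured 761, 786, 908 and 702 CPM in young AL mice and 758, 784 and 796 CPM in young EOD mice. The old AL mice measured 723, 748, 783 and 731 CPM and the old EOD mice 788, 749, 754 and 775 CPM. The highest value was that of the third young AL mouse. With age averaged over diets the log2 fold change was -0.053 (-0.16 to 0.050; edgeR FDR = 0.74) with all mice and -0.010 (FDR = 0.96) without that mouse. Of the summed per-length level of the 3 family genes, App made up 51.1% to 55.6%, Aplp1 27.6% to 32.4% and Aplp2 15.3% to 19.1% in each mouse.

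Bace1, the beta-secretase, measured 184, 157, 158 and 162 CPM in young AL mice and 171, 172 and 165 CPM in young EOD mice. At 24 months the values were 160, 168, 157 and 155 CPM with AL and 164, 160, 170 and 168 CPM with EOD. All groups overlapped, and 1 young AL mouse was the highest. Averaged over diets, its log2 fold change with age was -0.041 (-0.14 to 0.057; edgeR FDR = 0.80) and that with EOD averaged over ages was 0.042 (-0.056 to 0.14; FDR = 0.98). The gene Gm16536, which lies opposite Bace1 (chr9:45856769-45858357) and is counted on the other strand, measured 13.5 to 18.3 CPM and was not called either.

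Adam10, the alpha-secretase, measured 143, 133, 124 and 132 CPM in young AL mice and 149, 136 and 128 CPM in young EOD mice. In old AL mice it measured 155, 139, 134 and 141 CPM and in old EOD mice 151, 145, 141 and 152 CPM. Of the 8 old mice, 3 lay above the highest young mouse, and the groups of each comparison overlapped. Its log2 fold change with age was 0.099 in AL mice (-0.047 to 0.24; edgeR FDR = 0.69), 0.098 in EOD mice (-0.060 to 0.26; FDR = 0.99) and 0.098 when averaged (-0.0089 to 0.21; FDR = 0.47). The ratio of Bace1 to Adam10 per length, the 2 enzymes that compete for the first cut, was 0.889 to 0.998 in the 7 young mice and 0.799 to 0.932 in the 8 old mice. The mean ratio was 0.963 ± 0.037 (SD, n = 4) in young AL, 0.955 ± 0.058 (n = 3) in young EOD, 0.873 ± 0.060 (n = 4) in old AL and 0.869 ± 0.040 (n = 4) in old EOD mice. The ratio was looked at after the values were known, young and old overlapped, and no test was made of it.

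Psen2, one of the 2 alternative catalytic subunits of gamma-secretase, had the largest fitted increase with age and the widest intervals. It measured 12.5, 14.4, 10.05 and 13.4 CPM in young AL mice and 12.2, 9.97 and 13.3 CPM in young EOD mice. Among old mice, the AL group had 14.5, 16.1, 15.9 and 15.6 CPM and the EOD group 13.1, 13.8, 12.2 and 13.2 CPM. The old AL mice were thus above all other mice, by a narrow margin over the highest young AL mouse. The log2 fold change of Psen2 with age in AL mice was 0.31 ± 0.13 (SE; interval 0.037 to 0.58) at an unadjusted p = 0.0279 and an edgeR FDR of 0.44. Without the third young AL mouse, which had the lowest value of its group, it was 0.21 with an FDR of 0.78. In EOD mice it was 0.13 ± 0.14 (-0.17 to 0.43; edgeR FDR = 0.99). In old mice, the log2 fold change with EOD was -0.25 ± 0.13 (-0.52 to 0.016, FDR = 0.9999). The interaction of age and diet was -0.17 ± 0.19 (-0.58 to 0.23, FDR = 0.9998). A difference between the diets in the effect of age was thus not detected. Without the third young AL mouse the interaction was -0.078 (-0.44 to 0.28). The log2 fold change with EOD averaged over ages was -0.17 ± 0.097 with all mice (unadjusted p = 0.101) and -0.21 ± 0.086 without that mouse (unadjusted p = 0.0207, edgeR FDR = 0.79).

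The mice had been sequenced on 3 lanes, of which 1 held no young EOD mouse. Within lanes 1, 2 and 3 the log2 difference of Psen2 between old and young AL mice was 0.11, 0.66 and 0.22, and that between EOD and AL in old mice was -0.15, -0.21 and -0.30, each resting on 1 or 2 mice per group. The third young AL mouse is the single young AL mouse of lane 2.

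Ncstn, the nicastrin subunit of gamma-secretase, was the member closest to the threshold. It measured 66.8, 69.8, 68.4 and 56.8 CPM in young AL mice and 63.3, 69.6 and 65.1 CPM in young EOD mice. Old AL mice had 59.6, 61.1, 55.8 and 56.6 CPM and old EOD mice 65.1, 56.3, 55.8 and 52.7 CPM. The fourth AL mouse was the lowest of the young and the first EOD mouse the highest of the old, and the ages overlapped (56.8 to 69.8 CPM in young and 52.7 to 65.1 CPM in old mice). The log2 fold change with age averaged over diets was -0.18 ± 0.063 (SE; -0.31 to -0.050), with an unadjusted p = 0.00903 and an edgeR FDR of 0.21, and the size was alike in AL (-0.17, FDR = 0.55) and EOD mice (-0.20, FDR = 0.87). Without the fourth young AL mouse it was -0.21 at an FDR of 0.093, under the threshold, and without the third young AL mouse -0.17 at an FDR of 0.27. With sequencing lane in the model it was -0.14 (FDR = 0.46), and within lanes 1, 2 and 3 the difference between old and young was -0.097, -0.23 and -0.046. Copa, a neighbour that overlaps the first bases of Ncstn on the opposite strand, was counted separately and had a log2 fold change with age of 0.0081 (FDR = 0.97).

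Mapt, which encodes tau, was among the least variable of the 8. It measured 512, 559, 589 and 504 CPM in young AL mice and 552, 558 and 495 CPM in young EOD mice. The old AL mice measured 558, 544, 571 and 545 CPM and the old EOD mice 533, 535, 533 and 559 CPM. The old mice all lay inside the young range, whose top was the third young AL mouse, and without that mouse 2 of the 8 old mice lay above it (571 and 559.2 CPM against 558.7 CPM). The log2 fold change of Mapt with age averaged over diets was 0.025 (-0.070 to 0.12; edgeR FDR = 0.89), within 1.09-fold, and that with EOD averaged over ages was -0.028 (-0.12 to 0.068; FDR = 0.98), also within 1.09-fold. Without the third young AL mouse the age value was 0.052 (-0.041 to 0.14; FDR = 0.71), within 1.11-fold, and the diet value -0.0055 (-0.098 to 0.087), within 1.07-fold. Without the third young EOD mouse the age value was -0.0017.

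**Figure D3:**
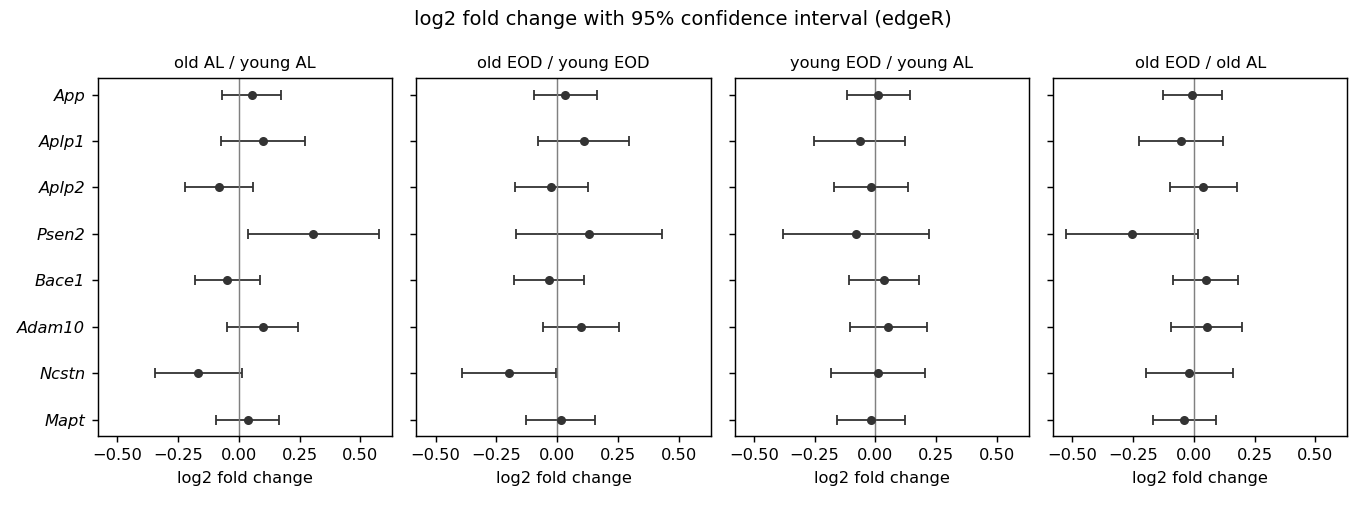
Fitted log2 fold change of each gene (points) with its 95% confidence interval (bars) for age in AL mice, age in EOD mice, EOD in young mice and EOD in old mice. Intervals of Psen2 in AL mice and of Ncstn in EOD mice leave 0 before adjustment, and all FDR values are at least 0.44.

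For the genes other than Psen2, the widest 95% interval reached 1.24-fold (Ncstn) for age averaged over diets and 1.14-fold (Aplp1) for diet averaged over ages, while that of Psen2 reached 1.34-fold and 1.29-fold. The median log2 fold change of the 8 genes was 0.034 for age averaged over diets, against -0.0049 over all tested genes, with 5 of 8 above 0, and it was -0.00083 for diet averaged over ages, against 0.00037, with 4 of 8 above 0. In simulated counts with these library sizes, edgeR called 16% of genes changed 1.2-fold with age and 76% of those changed 1.5-fold. The changed genes were drawn from all tested genes, with a median biological coefficient of variation of 0.123. That of the 8 genes was 0.0652 (App) to 0.107 (Psen2), so these shares do not give the rate for the 8 genes.

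Genes that act around these proteins were taken in 5 further lists. The first held 9 genes for other secretases and their subunits (Psenen, Aph1a, Aph1b, Aph1c, Bace2, Adam17 and Adam9) and partner proteins (Tmed10 and Rtn3). Of these, 0 were called in any of the 7 comparisons (0 of 9 at an unadjusted p under 0.05 for age averaged over diets). Their median log2 fold change with age averaged over diets was 0.035. Aph1b and Aph1c are near-identical copies between which reads may be split. The smallest p among them for age averaged over diets was that of Rtn3, a reticulon that binds BACE1, at -0.071 ± 0.044 (SE; edgeR FDR = 0.56). Psenen, a small subunit of gamma-secretase, had the largest fold changes of the list and is named after its values were seen. It was counted only 5 to 27 times per mouse, and measured 0.844, 1.56, 2.04 and 2.01 CPM in young AL mice and 0.513, 1.03 and 0.789 CPM in young EOD mice, with 0.921 to 1.89 CPM in old mice. Its log2 fold change was -1.12 ± 0.44 with EOD in young mice (SE; unadjusted p = 0.0200, edgeR FDR = 0.996) and 0.96 ± 0.45 with age in EOD mice (unadjusted p = 0.0453, edgeR FDR = 0.87). The groups overlapped in both comparisons, which share the same young EOD mice. Of 17 genes for adaptors and sorting proteins of the precursor, such as Sorl1, Apbb1 and Itm2b, 0 were called in any comparison (0 at an unadjusted p under 0.05 for age averaged over diets) and the median with age was 0.0095. Itm2c, a relative of Itm2b, had the smallest p with 0.097 ± 0.049 (FDR = 0.45).

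Of 7 genes for amyloid-beta degradation and clearance (Mme, Ide, Ece1, Ece2, Thop1, Lrp1 and Cst3), 1 rose with age averaged over diets (2 at an unadjusted p under 0.05; 2.3% and 11.7% of all tested genes), and the median log2 fold change was 0.00085. This was Cst3, which encodes the secreted protease inhibitor cystatin C, an amyloid-beta binding protein made largely by astrocytes and microglia, and no protease of the list was called. Cst3 measured 494, 618, 565 and 616 CPM in young AL mice and 441, 481 and 539 CPM in young EOD mice. At 24 months the values were 658, 678, 751 and 721 CPM with AL and 631, 593, 602 and 636 CPM with EOD. Old and young did not overlap within either diet, and old AL mice were the highest. Averaged over diets, Cst3 rose by 0.32 ± 0.056 on the log2 scale (SE; edgeR FDR = 0.00315), and the call held in all 15 fits that left out 1 mouse (FDR 0.00185 to 0.0202). In AL mice alone the value was 0.29 at an FDR of 0.095, and the call held in 4 of 15 such fits (FDR 0.0548 to 0.342); without the third young AL mouse the FDR was 0.16. In EOD mice it was 0.34 at an edgeR FDR of 0.15. With EOD, averaged over ages, the log2 fold change of Cst3 was -0.21 ± 0.056 (SE; unadjusted p = 0.00113 and edgeR FDR = 0.98), and it was not called. Summed astrocyte markers were 1902 to 2040 CPM in young and 2159 to 2413 CPM in old mice, with 1 of 5 markers called higher. For age averaged over diets, 3 of these 5 had a log2 fold change above 0 (range -0.063 to 1.16, median 0.073). Summed microglial markers were 196 to 218 and 226 to 270 CPM, with 3 of 5 called higher and 5 of 5 above 0. The part of astrocytes and microglia in the Cst3 difference was not tested.

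Of 19 tau kinase and phosphatase genes, such as Gsk3b, Cdk5, Mark1 and Ppp2ca, 1 fell with age averaged over diets (3 at an unadjusted p under 0.05; 2.3% and 11.7% of all tested genes) and the median log2 fold change was -0.059. This was Fyn, a Src-family kinase that phosphorylates tau on tyrosine. Fyn measured 142, 144, 141 and 131 CPM in young AL mice and 142, 138 and 139 CPM in young EOD mice. In old AL mice it measured 120, 124, 131 and 125 CPM and in old EOD mice 128, 123, 123 and 125 CPM. All 8 old mice lay below all 7 young mice, by a narrow margin between the fourth young AL mouse (131.2) and the third old AL mouse (130.9). Fyn fell by 0.16 ± 0.044 on the log2 scale (SE; edgeR FDR = 0.088), close to the threshold. The call was kept in 1 of 15 fits that left out 1 mouse, that without the fourth young AL mouse (FDR 0.0696 to 0.222; 0.12 without the third young AL mouse), and DESeq2 gave an FDR of 0.0200. Summed neuronal markers were 7389 to 8770 CPM in young and 7101 to 8046 CPM in old mice, with 0 of 6 markers called. For age averaged over diets, 1 of these 6 had a log2 fold change above 0 (range -0.11 to 0.022, median -0.072). The value of 8770 CPM was that of the third young AL mouse, and young EOD mice reached 7666 CPM. The part of neurons in the Fyn difference was not tested.

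Of 16 microtubule-associated protein and tubulin genes, such as Map2, Map1b and Tubb3, 0 were called (2 at an unadjusted p under 0.05 for age averaged over diets), and their median log2 fold change with age averaged over diets was -0.030. The smallest p was that of Dcx, which encodes doublecortin, a microtubule protein of migrating young neurons. Dcx measured 69.4, 28.7, 47.1 and 51.4 CPM in young AL mice and 27.7, 55.7 and 39.6 CPM in young EOD mice, against 24.6 to 39.4 CPM in the 4 old AL and 21.8 to 37.9 CPM in the 4 old EOD mice. The log2 fold change was -0.58 ± 0.17 (SE; edgeR FDR = 0.12), and young and old overlapped. It passed the threshold without the second young AL, the first young EOD, the second old AL or the third old EOD mouse, and in the fit that kept genes down to 1 count in all. With diet, 0 genes of these 5 lists were called in any comparison.

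**Figure D4:**
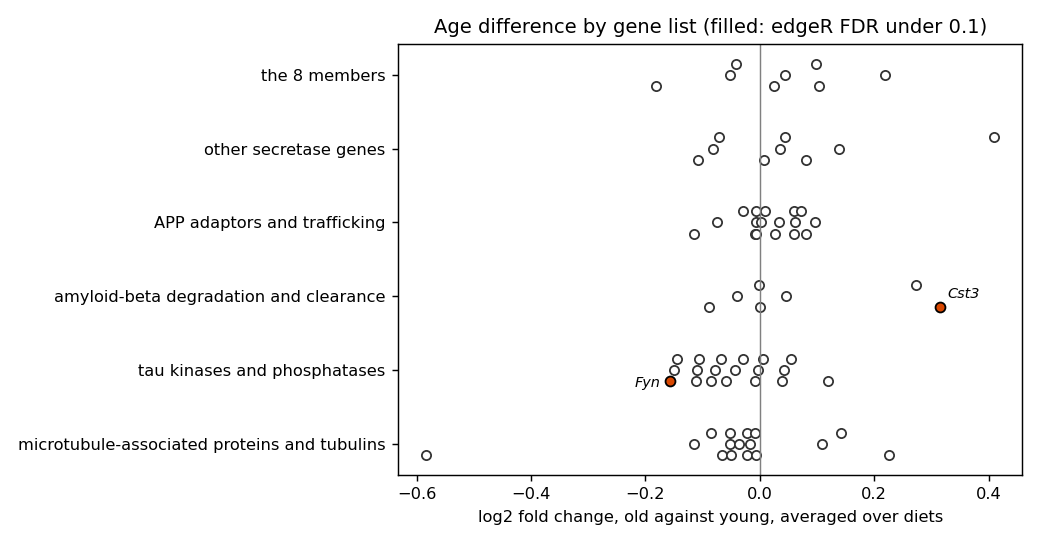
Fitted log2 fold change with age, averaged over diets, for the 8 genes and for the 5 lists, with 1 point per gene and filled points for genes with an edgeR FDR under 0.1. Cst3 (0.32) and Fyn (-0.16) are filled, and the 8 genes lie between -0.18 (Ncstn) and 0.22 (Psen2).

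With the third young AL mouse left out, the genes whose log2 CPM most resembled App over the remaining 14 mice were Fen1 (Pearson r = 0.88, Spearman rho = 0.82), Ly6g6f (0.86 and 0.80) and Ndufv1 (0.86 and 0.84), and over all 15 mice r was 0.74, 0.48 and 0.73. For Mapt they were Snx9 (0.86 and 0.83), Slc4a1ap (0.86 and 0.81) and Gm17111 (0.85 and 0.78), with r = 0.89, 0.66 and 0.88 over 15 mice. The mice share library scaling and group structure, and the highest of many correlations are given as a description. Among the 8 genes themselves over the same 14 mice, the highest r was 0.69 (App with Aplp1) and the lowest -0.71 (App with Bace1). The first young AL mouse was the lowest of all mice for App (1835 CPM) and Aplp1 (743 CPM). It was also the highest for Bace1 (184 CPM), and r without this mouse was not computed.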

How the data were processed

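RNA of whole brains from 15 mice, 1 library per mouse, had been sequenced as 50 bp single-end reads. The authors used STAR for alignment to GRCm38 and featureCounts 1.5.0-p1 for counting over the genes of Ensembl release 79 (minimum mapping quality 5, primary alignments, strand setting 2) and deposited counts per gene without normalization. Groups came from the labels. Symbols were matched by Ensembl identifier for 42462 of 43629 genes, and 17360 genes had no count. Total counts of 5198748 to 13610729 limit precision most for Psen2.

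Here, edgeR 4.0.16 (R 4.3.3) was run on the counts (TMM, filterByExpr, glmQLFit, glmQLFTest) in 1 fit of 4 group means, with Benjamini-Hochberg adjustment. Standard errors are the log2 fold change divided by the root of the F statistic, and intervals are at 95%. CPM per kilobase divides TMM-scaled CPM by the exon length in the files. Log2 CPM for correlations used a prior count of 2. The 8 members, the 5 pathway lists and the marker lists (neurons, astrocytes, oligodendrocytes, microglia, endothelium, choroid plexus, pituitary, blood and liver) were chosen with earlier results of these data known. Named beside the members are list genes under an FDR of 0.1 in a comparison, the gene of each list with the smallest p for age averaged over diets, and the 3 genes most correlated with App and with Mapt. Genes and alternatives named otherwise are said to be so. Summed markers ranged from 4083 to 4924 CPM for oligodendrocytes, 86.5 to 127 for endothelium, 298 to 1156 for choroid plexus, 21.7 to 94.4 for blood and 0 to 1009 for pituitary, the last from 1 old AL mouse.

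The steps were tested on simulated data. Of 21 replicate pairs, 0 were duplicates (chi-square over degrees of freedom at least 3.14), and each mouse counted as 1 sample. Replicate numbers were not read as pairs of mice. Alternatives were 2 other filters on low counts, RLE size factors, library totals alone, DESeq2 1.42.0, limma 3.58.1 voom with quality weights, an FDR of 0.05, replicate number as a block, lane as a covariate and leaving out each mouse. Protein sequences were not used here.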

Additional observations from a re-analysis of the deposited data

Results flagged for a closer look

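Of 24 sets of 4 mice (8 genes in the groups of 4), 2 held a mouse far from the rest by Dixon's ratio, and chance gives about 1 in 20. Aplp1 measured 742.7 CPM in the first young AL mouse, against 884 to 913 CPM in the other 3 of its group (gap over range 0.831). Mapt measured 559.2 CPM in the fourth old EOD mouse, against 533 to 535 CPM in the other 3 (0.906), which lie close together. Neither gene was called in a fit without these mice.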

How the results depend on the processing

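Over 24 alternatives in each of 7 comparisons, 167 of 168 counts of members called were 0. The exception was age averaged over diets, where leaving out 1 mouse at a time gave 0 to 1 call: Ncstn at -0.21 without the fourth young AL mouse. Per-length levels differed by less than the spread between mice under library totals alone. Of 1344 member fold changes under an alternative (8 genes, 7 comparisons), 1 was called (that of Ncstn) and 81 changed sign, none of these larger than 0.067 (log2) or called, and for these the cause was not tested. With lane as a covariate these were Aplp2 for age in EOD mice (0.031), Ncstn for EOD in young (-0.017) and old mice (0.012), App for EOD in old mice (0.0014), and Ncstn (0.029) and Mapt (0.0019) for the interaction. With voom they were Aplp2 (0.045) and Mapt (0.036) for EOD in young mice and Ncstn in old mice (0.0029) and averaged (0.027), and for the interaction Aplp1 (-0.016), Aplp2 (-8.5e-05) and Adam10 (0.033). With the replicate block they were Ncstn for EOD in young mice (-0.028), App for EOD averaged over ages (-0.00023), and Adam10 (0.0019) and Ncstn (0.0045) for the interaction. App for EOD averaged over ages was -0.0035 with at least 10 counts in every mouse and -0.0024 with library totals alone, and the Adam10 interaction was 0.00039 with RLE. Leaving out 1 mouse at a time, the ranges were -0.072 to 0.016 for Bace1 (age, AL), -0.039 to 0.044 for Mapt (age, EOD), and for EOD in young mice -0.019 to 0.042 for App, -0.070 to 0.057 for Aplp2, -0.0085 to 0.11 for Adam10, -0.18 to 0.019 for Psen2, -0.053 to 0.043 for Ncstn and -0.049 to 0.037 for Mapt. For EOD in old mice they were -0.024 to 0.015 for App and -0.085 to 0.020 for Ncstn. The range was -0.0017 to 0.052 for Mapt with age averaged over diets, and for EOD averaged over ages -0.015 to 0.018 for App, -0.018 to 0.048 for Aplp2 and -0.039 to 0.015 for Ncstn. For the interaction it was -0.048 to 0.0087 for App, -0.067 to 0.062 for Aplp1, -0.018 to 0.10 for Aplp2, -0.051 to 0.038 for Bace1, -0.052 to 0.061 for Adam10, -0.096 to 0.028 for Ncstn and -0.074 to 0.0091 for Mapt.

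With the replicate block, 0 members were called in each comparison. Same-numbered mice had correlated deviations of -0.11 to 0.11, and 3 of 15 mice correlated best with their own number, so the numbers were not read as pairs. Under the block, 250 genes in all were called for age averaged over diets against 365, 155 against 173 in AL mice and 35 against 46 in EOD mice, Cst3 kept its call and Fyn lost it.

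Counts over all genes called for age averaged over diets, in AL mice and in EOD mice were 653, 444 and 100 with every gene of at least 1 count (and 65, 27, 26 and 26 for diet averaged, in old mice, in young mice and the interaction, against 0 each). They were 474, 245 and 70 with DESeq2, 487, 152 and 125 with voom, 229, 128 and 36 at an FDR of 0.05 and 237, 159 and 40 with lane. Leaving out 1 mouse gave 216 to 425, 102 to 221 and 19 to 76. For diet, DESeq2 called 1 gene in young mice, voom called 2 in old mice and the fit with lane called 2 in old mice. Of 840 counts of list genes called, 787 stayed as reported and 53 moved, none above 2: Ide, Map7, Dcx and Cdk5r1 were called with age and Cst3 with diet under some alternatives, and Fyn and the Cst3 call in AL mice were lost under most.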
